A study of Homo sapiens with 12 samples.

Results

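The genes of cholesterol synthesis, of its control by the transcription factor SREBP2 and of sterol uptake were examined in H69 cells, an SV40-transformed line of human bile duct epithelium, given TGFβ, Aramchol, both or vehicle. The set had 29 genes, chosen by name from the pathway, but with earlier results of these data known. It held 8 enzymes of the mevalonate steps, 3 that lead from farnesyl diphosphate through squalene to lanosterol, and 8 that turn lanosterol into cholesterol. The others were 6 genes of SREBP2 and its control, and 4 genes of sterol uptake and transport. Each of the 29 symbols matched 1 gene ID of the 62703 in the count table, and all 29 were among the 21567 genes with enough counts to be tested. Each group had 3 libraries. Cells of all 4 groups were starved of serum for 6 h and stayed without it overnight. During that night 1 group received vehicle, another 10 ng/mL of TGFβ, another 30 µM of Aramchol, and the last both agents at those doses. Nothing in the labels says that the 3 libraries of a group came from separate cultures, so the p-values speak of the spread between libraries, and that spread may be technical.

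Cells make cholesterol from acetyl units through mevalonate, squalene and lanosterol. When sterol in the endoplasmic reticulum is low, SCAP carries SREBP2 to the Golgi, where it is cleaved, and the released part enters the nucleus and raises transcription of nearly every enzyme of the pathway, of sterol uptake genes and of INSIG1, which holds SCAP back when sterol is plentiful. Aramchol joins cholic acid, a bile acid, to arachidic acid, a fatty acid, and is known as an inhibitor of stearoyl-CoA desaturase (SCD), and TGFβ drives matrix production and loss of epithelial character in bile duct cells.

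The libraries held 52279922 to 70339925 counts, and mitochondrial genes took 7.81 to 9.45% of them. Of 8 cholangiocyte markers, 6 had enough counts to be tested, and with TGFβ alone 3 of these rose and 3 fell (edgeR adjusted p under 0.05). KRT7 and KRT19, keratins of that list, were at 706, 677 and 275 and at 33.4, 31.6 and 17.1 TMM-scaled CPM (the usual depth-normalised read count) in vehicle libraries 1 to 3, lowest in library 3. Of the other lists, 4 of 6 hepatocyte, 3 of 4 leukocyte and 2 of 4 endothelial markers stayed below 1 CPM in each group, with TTR at 0. This limit and the summed marker levels that follow use CPM on library sizes without TMM scaling. The summed level of the 4 leukocyte markers was 30.6 to 35.8 CPM in vehicle and 29.4 to 30.6 CPM with Aramchol, against 4.97 to 5.63 CPM with TGFβ and 5.05 to 6.84 CPM with both, and CD14 was the one tested; it fell with TGFβ. The summed level of 6 fibroblast markers was 1188 to 1371 CPM in vehicle, 1213 to 1458 CPM with Aramchol, 4360 to 5782 CPM with TGFβ and 3233 to 4521 CPM with both; the part of these markers in the results below was not tested. The libraries numbered 3 stand apart from the others for the sterol genes, as described further on.

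Levels of the sterol genes are given in CPM on library sizes scaled by the TMM method. Per kilobase of gene model they ranged over more than 1 order of magnitude in vehicle, from NPC2 at 67.3, ACAT2 at 55.5 and FDFT1 at 52.5 CPM per kilobase to MVK at 3.56, SC5D at 3.55 and CYP51A1 at 2.66 CPM per kilobase. SREBF2, which encodes SREBP2, lay in the middle of that order at 25.8 CPM per kilobase, and SCAP at 20.2. The lowest count of any of the 29 genes in any library was 562, for TM7SF2. Reads could be shared with another gene at some members: in CYP51A1, 68.2% of the exon bases (2844 of 4171) also belong to genes on the same strand, in GGPS1 37.3% and in EBP 36.4%. HMGCS1 shares 37.7% of its exon bases with a gene on the opposite strand, and no source used here says whether counting used strand.

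Aramchol alone was followed by higher RNA of 4 sterol genes and by a shift of most of the others in the same direction that did not pass the test. RNF145, STARD4, SC5D and MSMO1 rose by 1.25 to 1.33 times and none of the 29 fell (edgeR quasi-likelihood test, Benjamini-Hochberg adjusted p under 0.05 over all genes tested). In bulk RNA such a difference cannot be told apart from a change in the share of cells that hold the RNA. Across all genes 0.357% were called in this comparison, 0.236% higher and 0.121% lower. The log2 fold change was positive for 26 of the 29 genes and negative for 3, with a median of 0.20, against -0.01 over all genes, of which 48.4% were positive. In 16 members each Aramchol library lay above each vehicle library and in 1 each lay below, where 7.74% and 8.26% of all genes did so. These counts lean on single libraries: the median was 0.15 without vehicle library 3 and 0.14 without Aramchol library 3, and between the libraries numbered 1 and 2 it was 0.09, with 22 of 29 positive. The number of calls depended on the method: CYP51A1, IDI1, INSIG1, NPC1 and SQLE were called as well by DESeq2, with no filter on low counts and with a term for the libraries numbered 3, settings that called 396, 531 and 538 of all genes. All of these but CYP51A1 were called among the libraries numbered 1 and 2, where 1551 genes were called. The same was true with a replicate block, a term for library number, where 464 genes were called. With no filter ACAT2, DHCR7, FDFT1, HMGCS1 and MVK were called higher as well. Among the libraries numbered 1 and 2, ERLIN1 was called higher.

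When Aramchol was added to TGFβ, 2 of the 29 genes rose, RNF145 and GGPS1, and none fell, where 2.25% of all genes were called, 0.890% higher and 1.36% lower. The log2 fold change was positive for 17 members and negative for 12, with a median of 0.02 against 0.00 over all genes, of which 49.8% were positive. Without single libraries that median ran from -0.04 (without library 3 of the group with both agents) to 0.07, so it had no settled sign. Libraries of the 2 groups were fully separated, with both agents higher, in 6 members and lower in 1, where 11.5% and 12.2% of all genes were. Other settings changed the calls. With no filter (1278 genes called) TM7SF2 was called lower and GGPS1 was not called. The replicate block (1519 genes) called ERLIN1 higher, and the term for the libraries numbered 3 (1683 genes) called ERLIN1 and SC5D higher. Among the libraries numbered 1 and 2 (1866 genes), CYP51A1, MSMO1 and SC5D were called higher. Averaged over cells without and with TGFβ, the Aramchol effect was called in 9 members, all higher, against 5.96% of all genes, 2.88% higher and 3.08% lower. Those 9 were RNF145, CYP51A1, INSIG1, MSMO1, SC5D, SQLE, GGPS1, NPC1 and ERLIN1. The averaged effect uses the libraries of both single comparisons and is no separate evidence. Without each library in turn, 4 to 12 members were called in it. RNF145, SC5D and MSMO1 kept their calls without any 1 of the 12 libraries and in all 8 other settings tried. INSIG1 lost its call in 10 of the 12 left-out fits, SQLE and ERLIN1 in 9 each, GGPS1 and CYP51A1 in 2 each, and NPC1 in 1. In several settings TM7SF2 was called lower for this effect, as given below.

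**Figure D1:**
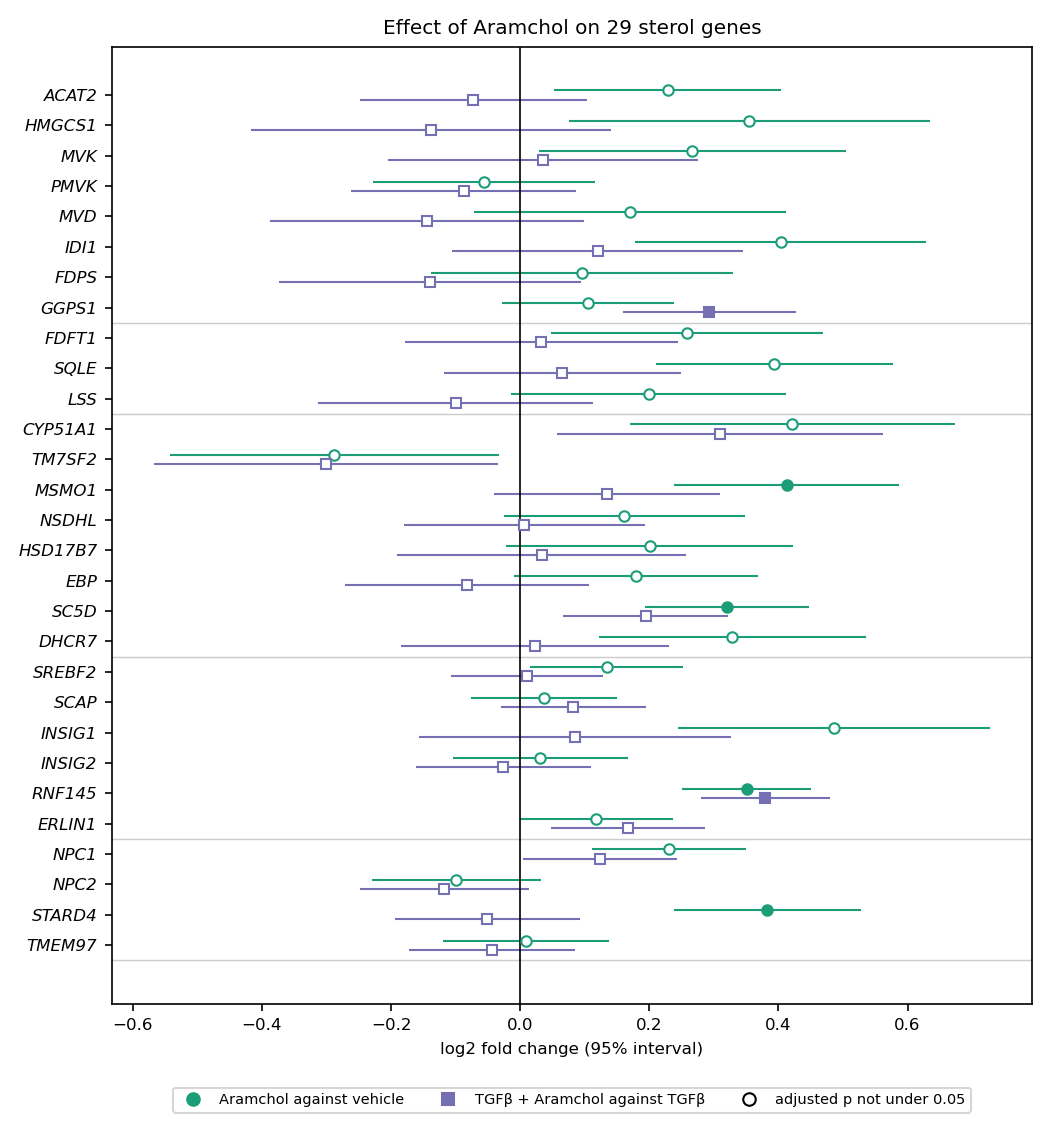
Log2 fold change (x axis) of 29 sterol genes (y axis, grouped by role) for Aramchol against vehicle and for TGFβ + Aramchol against TGFβ; points are estimates, bars 95% intervals, and filled points have an adjusted p under 0.05. RNF145 is filled in both comparisons, at 0.35 and 0.38, while most other genes lie right of 0 in the comparison with vehicle and around 0 in the comparison with TGFβ.

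TGFβ alone raised 5 and lowered 2 of the 29 genes, where 37.0% of all genes were called, 18.9% higher and 18.1% lower. Without vehicle library 3 the counts were 3 higher and 4 lower, LSS and SREBF2 being called lower and EBP and INSIG1 not called. Among the libraries numbered 1 and 2 they were 4 higher and 8 lower, with FDFT1, LSS, MSMO1, MVD, MVK and SREBF2 called lower besides TM7SF2 and TMEM97. The 7 of 29 called are a smaller share than that over all genes, and the median of the members was -0.01 against -0.03 over all genes. In 5 members each TGFβ library lay above each vehicle library and in 3 below. Of all genes 46.6% were separated, 23.0% higher and 23.7% lower. With Aramchol in both groups, TGFβ was followed by a rise of 1 gene, NPC2, and a fall of 7, where 30.2% of all genes were called, 16.0% higher and 14.2% lower. Here 22 of 29 log2 fold changes were negative, with a median of -0.12 against -0.01 over all genes, of which 50.8% were negative. Of the 29, 10 lay wholly lower and 2 wholly higher, where 44.6% of all genes were separated, 21.8% lower and 22.7% higher. Without Aramchol library 3 this median was -0.06, and LSS, NPC2, TM7SF2 and TMEM97 were the members called. Each TGFβ comparison shares 1 group of libraries with each Aramchol comparison, so their values are given side by side and not as separate support. The 2 TGFβ comparisons share no library with each other, nor do the 2 Aramchol comparisons, but 1 fit gave all of them.

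**Figure D2:**
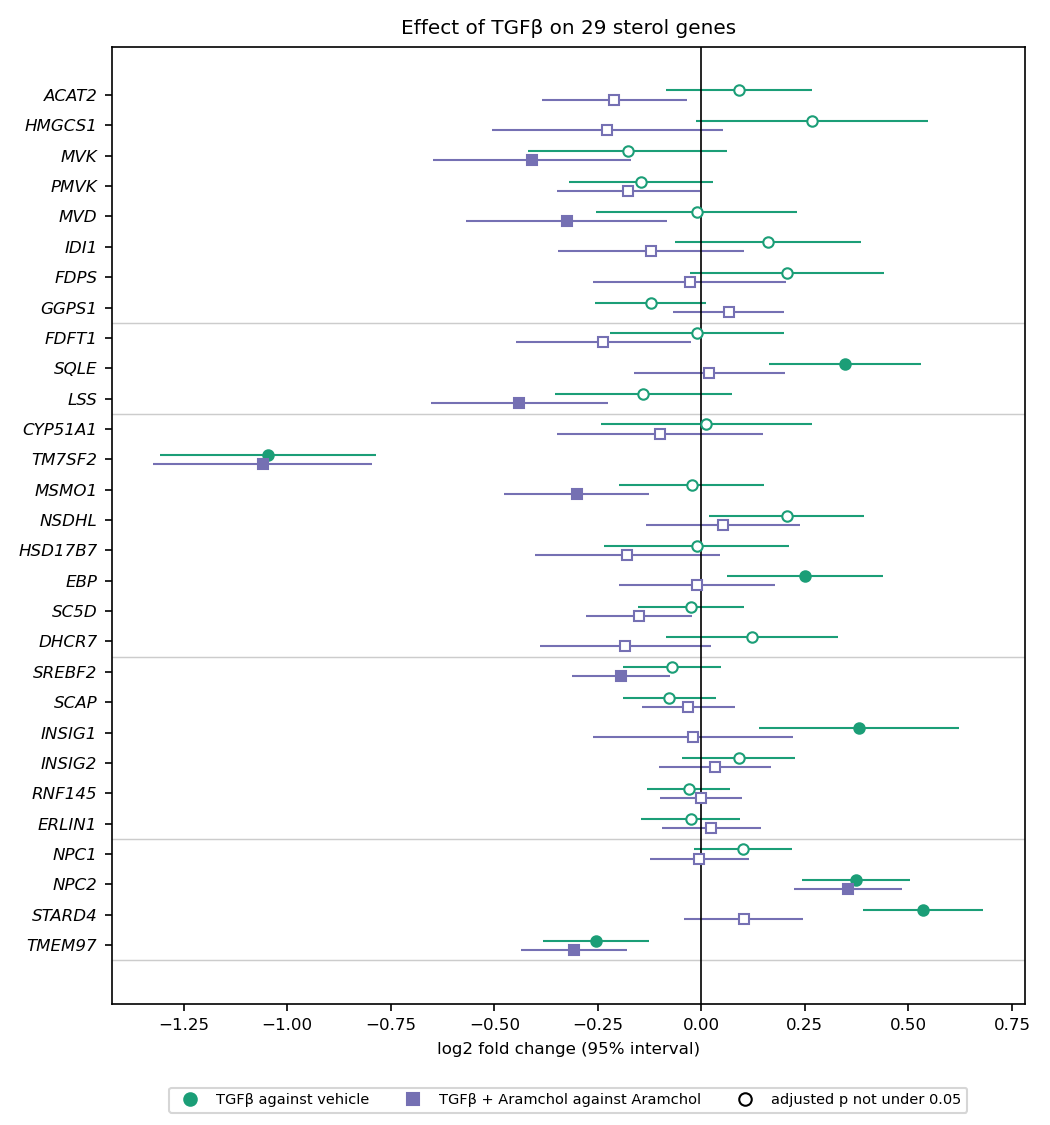
Log2 fold change (x axis) of the 29 sterol genes (y axis, grouped by role) for TGFβ against vehicle and for TGFβ + Aramchol against Aramchol, with 95% intervals; filled points have an adjusted p under 0.05. TM7SF2 lies near -1.05 in both comparisons and NPC2 near 0.37 and 0.35.

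None of the 8 enzymes of the mevalonate steps was called with Aramchol alone or with TGFβ alone, except in some other settings. The log2 change with Aramchol alone was positive in 7 of the 8, with a median of 0.20 and 4 at an unadjusted p under 0.05, where 5.49% of all genes were. IDI1, which isomerises isopentenyl diphosphate, was measured at 125, 129 and 129.8 CPM in vehicle, 156, 154 and 197 CPM with Aramchol, 129, 135 and 165 CPM with TGFβ and 146, 142 and 178 CPM with both. The Aramchol libraries all lay above the vehicle libraries, but the log2 difference of 0.40 (SE 0.11) did not pass (edgeR adjusted p = 0.141). It was called in the settings named above for IDI1. HMGCS1, which makes HMG-CoA, was at 114, 117 and 78.4 CPM in vehicle and 122, 124 and 149.8 CPM with Aramchol, a log2 difference of 0.36 (SE 0.13, edgeR adjusted p = 0.307). Vehicle library 3 was the lowest and Aramchol library 3 the highest of those 6, and HMGCS1 was called with no filter. With Aramchol alone ACAT2, which joins acetyl-CoA units, had a log2 difference of 0.23, called only with no filter. PMVK, which phosphorylates phosphomevalonate, and FDPS, which makes farnesyl diphosphate, had log2 differences of -0.06 and 0.10 there. With TGFβ in Aramchol-treated cells ACAT2 was called lower in several settings, among them no filter, upper quartile scaling and the replicate block. The replicate block called PMVK lower in that comparison too.

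GGPS1 (chromosome 1, 235327350 to 235344532 of GRCh38), which makes geranylgeranyl diphosphate for protein prenylation, was the enzyme of this branch that rose when Aramchol was added to TGFβ. Its level was 16.7, 16.002 and 16.97 CPM with TGFβ and 19.3, 20.7 and 20.9 CPM with both, against 17.7, 17.8 and 18.7 CPM in vehicle and 19.6, 19.3 and 19.3 CPM with Aramchol. All libraries with both agents lay above all those with TGFβ. The log2 fold change was 0.29 (SE 0.06, edgeR adjusted p = 0.0270), and the call was lost without any 1 of the 6 libraries of the 2 groups, at adjusted p up to 0.134. With Aramchol alone the log2 difference was 0.10 (95% interval -0.03 to 0.24).

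MVK and MVD, the kinase that phosphorylates mevalonate and the enzyme that decarboxylates its diphosphate, fell with TGFβ when Aramchol was present in both groups. MVK was at 36.4, 35.2 and 44.4 CPM with Aramchol and 30.4, 25.3 and 31.6 CPM with both, and these groups did not overlap. The log2 fold change was -0.41 (SE 0.11, edgeR adjusted p = 0.0110), and without Aramchol library 3 the adjusted p was 0.0633. MVD was at 64.4, 59.4 and 78.2 CPM with Aramchol and 52.3, 49.2 and 59.6 CPM with both, groups that overlapped by a small margin (log2 -0.33, edgeR adjusted p = 0.0411), and its call was lost without any of 6 libraries, among them Aramchol library 3. In the absence of Aramchol the log2 difference with TGFβ was -0.18 for MVK and -0.01 for MVD, neither called, although both were called lower among the libraries numbered 1 and 2.

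Of the 3 enzymes between farnesyl diphosphate and lanosterol, SQLE moved with TGFβ and LSS with TGFβ in Aramchol-treated cells. SQLE, the epoxidase that adds oxygen to squalene, was at 149, 154 and 117 CPM in vehicle, 169.5, 177 and 188 CPM with TGFβ, 174, 177 and 200.1 CPM with Aramchol and 186, 178 and 195 CPM with both. Each treated group lay wholly above vehicle. The rise with TGFβ was 0.35 on the log2 scale (SE 0.09, edgeR adjusted p = 0.00462) and kept its call without each library, at adjusted p up to 0.0241. With Aramchol alone the log2 difference of 0.39 had an edgeR adjusted p of 0.0755, but the gene was called without vehicle library 3 and in the settings named above for it.

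LSS, which closes squalene epoxide into lanosterol, was at 271, 268 and 331 CPM with Aramchol and 214, 199.8 and 227 CPM with both, a log2 fold change of -0.44 (SE 0.10, edgeR adjusted p = 0.00325). The groups did not overlap, and the call held without each library, at adjusted p up to 0.0189. In vehicle LSS was at 279.8, 265 and 213 CPM and with TGFβ at 209.5, 230.0 and 248 CPM, and those groups overlapped (log2 -0.14, edgeR adjusted p = 0.305; called without vehicle library 3). FDFT1, squalene synthase, had log2 differences of 0.26 with Aramchol alone and -0.24 with TGFβ in Aramchol-treated cells. Neither was called by edgeR on all 12 libraries, with the filter and no added term, but both were called with no filter. The fall was also called with the replicate block, with the term for the libraries numbered 3 and among the libraries numbered 1 and 2. So it was without library 3 of the group with both agents.

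In the branch from lanosterol to cholesterol, 2 of 8 genes rose with Aramchol alone, MSMO1 and SC5D. MSMO1 (chromosome 4, 165327667 to 165343164), the oxidase that removes methyl groups at carbon C-4 of the sterol ring, was at 126, 134 and 110.0 CPM in vehicle, 158, 155 and 179.9 CPM with Aramchol, 113, 117 and 134 CPM with TGFβ and 129.7, 129 and 141 CPM with both. All Aramchol libraries lay above all vehicle libraries, and the groups with and without Aramchol on top of TGFβ overlapped. The log2 fold change with Aramchol alone was 0.41 (SE 0.08, edgeR adjusted p = 0.0484), just inside the threshold. This call was lost in 10 of the 12 fits without a single library, at edgeR adjusted p up to 0.133. With TGFβ in Aramchol-treated cells MSMO1 fell by 0.30 on the log2 scale (SE 0.08, edgeR adjusted p = 0.0105), and without Aramchol library 3 the adjusted p was 0.057.

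SC5D (chromosome 11, 121292681 to 121313410), the desaturase that makes the double bond at carbon C-5, was at 35.3, 35.7 and 36.1 CPM in vehicle and 35.6, 34.4 and 35.2 CPM with TGFβ. It was at 41.4, 43.9 and 48.4 CPM with Aramchol and 40.7, 41.2 and 38.6 CPM with both. Every library with Aramchol lay above every library without it, and the 6 libraries without it differed little. Aramchol alone raised SC5D by 0.32 on the log2 scale (SE 0.06, edgeR adjusted p = 0.0338). That call was lost in 9 of the 12 fits without a single library, at edgeR adjusted p up to 0.153. On top of TGFβ the log2 difference was 0.19 (SE 0.06, edgeR adjusted p = 0.109), and averaged over both backgrounds it was 0.26 (edgeR adjusted p = 0.00418).

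CYP51A1, which removes the methyl group at carbon C-14 of lanosterol, was at 12.6, 11.5 and 9.11 CPM in vehicle, 14.6, 13.7 and 16.2 CPM with Aramchol, 9.88, 10.8 and 12.8 CPM with TGFβ and 13.6, 13.6 and 14.4 CPM with both. Libraries with Aramchol lay above those without it on each background. It was called for the averaged effect, at 0.37 (SE 0.08, edgeR adjusted p = 0.0205; 0.0544 at most without single libraries), and not for Aramchol on either background, except that DESeq2, no filter and the term for the libraries numbered 3 called it on vehicle and the libraries numbered 1 and 2 on TGFβ. Its counts are the ones with the most exon bases shared with other genes. DHCR7, which makes the last reduction of one route to cholesterol, had a log2 difference of 0.33 with Aramchol alone, called only with no filter. NSDHL, a C-4 decarboxylase, and HSD17B7, its partner reductase, had log2 differences of 0.16 and 0.20 there, neither called.

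TM7SF2, a sterol C-14 reductase, had the largest TGFβ difference of the 29 genes and went down. It was at 31.1, 26.7 and 24.5 CPM in vehicle, 11.1, 14.0 and 14.6 CPM with TGFβ, 20.6, 21.3 and 25.4 CPM with Aramchol and 11.95, 9.31 and 10.99 CPM with both. Every library with TGFβ lay below every library without it. The fall was 2.07-fold without Aramchol (log2 -1.05, SE 0.12, edgeR adjusted p = 5.28e-06) and 2.08-fold with it (log2 -1.06, edgeR adjusted p = 6.76e-06), and both calls held in each of the 21 settings tried. TM7SF2 was also the member whose log2 difference with Aramchol alone was most negative, at -0.29 (95% interval -0.54 to -0.03, edgeR adjusted p = 0.365). Among the libraries numbered 1 and 2 it was called lower with Aramchol alone. For the averaged Aramchol effect it was called lower by DESeq2, and by edgeR with upper quartile scaling, no filter or a replicate block. The term for the libraries numbered 3, and the libraries numbered 1 and 2, also called it lower there. So did the fits without vehicle library 3, TGFβ library 1 or Aramchol library 3. EBP, a sterol isomerase, was at 61.3, 63.2 and 53.2 CPM in vehicle and 71.7, 66.0 and 73.8 CPM with TGFβ, groups that did not overlap (log2 0.25, edgeR adjusted p = 0.0373; 0.132 at most without single libraries).

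RNF145 was the one gene of SREBP2 control that rose with Aramchol on both backgrounds. RNF145 (chromosome 5, 159157409 to 159210053) encodes a ubiquitin ligase of the endoplasmic reticulum membrane that binds sterol-sensing proteins and is known as an LXR target in liver. Its level was 200.5, 204 and 192 CPM in vehicle and 199, 197 and 188 CPM with TGFβ. It was 257, 253 and 252 CPM with Aramchol and 251, 262 and 247 CPM with both. The 6 libraries with Aramchol lay above all 6 without it, with no value between 204 and 247 CPM. Aramchol raised it 1.28-fold on vehicle (log2 0.35, 95% interval 0.25 to 0.45, edgeR adjusted p = 0.00440) and 1.30-fold on TGFβ (log2 0.38, 0.28 to 0.48, edgeR adjusted p = 0.00143). Both calls held without each of the 12 libraries, at adjusted p up to 0.0338 and 0.0147; the first was lost when vehicle and Aramchol alone entered the fit, where none of the 29 genes was called and 5 genes in all were. TGFβ left a log2 difference of -0.03 (95% interval -0.13 to 0.07), and the interaction was 0.03 (95% interval -0.11 to 0.17).

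INSIG1, whose product retains SCAP in the endoplasmic reticulum, was at 146, 154 and 119 CPM in vehicle, 163, 179 and 201 CPM with TGFβ, 182, 177 and 226 CPM with Aramchol and 185, 175 and 217 CPM with both. Each treated group lay above vehicle, and the treated groups overlapped one another. The rise with TGFβ was 0.38 on the log2 scale (SE 0.11, edgeR adjusted p = 0.0153; 0.0779 at most without single libraries, lost without vehicle library 3 or TGFβ library 3). With Aramchol alone the log2 difference of 0.49 was the largest of the 29, yet it did not pass (SE 0.11, edgeR adjusted p = 0.0966) except in the settings named above for INSIG1. INSIG2, a second protein of that kind, had differences between -0.03 and 0.09 on the log2 scale in the 4 pairwise comparisons, none called.

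SREBF2 was at 205, 201 and 179 CPM in vehicle, 180.5, 184 and 193 CPM with TGFβ, 211, 209 and 223 CPM with Aramchol and 187, 186 and 188 CPM with both. With Aramchol in both groups TGFβ lowered it by 0.19 on the log2 scale (SE 0.06, edgeR adjusted p = 0.0140; 0.0605 without Aramchol library 3), and these groups did not overlap. SREBF2 was not called with Aramchol alone (log2 0.13, edgeR adjusted p = 0.363), and SCAP, its escort, was called in no comparison. ERLIN1, a membrane protein of sterol-dependent degradation in the endoplasmic reticulum, was at 86.6, 88.6 and 88.7 CPM in vehicle, 97.3, 100.4 and 88.7 CPM with Aramchol, 88.0, 89.3 and 82.0 CPM with TGFβ and 100.4, 97.7 and 93.1 CPM with both. It rose for the averaged effect, by 0.14 (edgeR adjusted p = 0.0454; 0.128 at most without single libraries).

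Among the transport genes, STARD4 and NPC2 rose with TGFβ and TMEM97 fell. STARD4 (chromosome 5, 111496033 to 111512590), which encodes a soluble carrier of cholesterol between membranes, was at 26.7, 27.6 and 23.2 CPM in vehicle, 38.5, 38.0 and 35.8 CPM with TGFβ, 34.1, 34.5 and 32.4 CPM with Aramchol and 34.7, 37.8 and 36.0 CPM with both. All 9 treated libraries lay above the 3 vehicle libraries. TGFβ raised it 1.45-fold (log2 0.54, SE 0.07, edgeR adjusted p = 1.21e-05) and Aramchol alone 1.30-fold (log2 0.38, SE 0.07, edgeR adjusted p = 0.0302; 0.166 at most without single libraries). On top of one agent the other left log2 differences of -0.05 (Aramchol on TGFβ, 95% interval -0.19 to 0.09) and 0.10 (TGFβ on Aramchol, -0.04 to 0.25).

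NPC2, the soluble lysosomal protein that hands cholesterol to NPC1, was at 183, 170.04 and 168 CPM in vehicle, 221, 217 and 237 CPM with TGFβ, 164, 156 and 167 CPM with Aramchol and 216, 189 and 217 CPM with both. Every library with TGFβ lay above every library without it. Its log2 fold change with TGFβ was 0.37 (SE 0.06, edgeR adjusted p = 0.000165) without Aramchol and 0.35 (edgeR adjusted p = 0.000346) with it. NPC1, the membrane protein of that pair, was at 199, 203 and 175 CPM in vehicle, 220.1, 229.6 and 226 CPM with Aramchol, 200.04, 208 and 210.2 CPM with TGFβ and 219, 226 and 228 CPM with both. NPC1 rose for the averaged Aramchol effect, by 0.18 (edgeR adjusted p = 0.0183; 0.0547 without Aramchol library 2).

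TMEM97, which encodes the sigma-2 receptor, a protein that binds NPC1, was at 110.1, 108 and 98.5 CPM in vehicle, 84.8, 87.4 and 93.3 CPM with TGFβ, 104, 102 and 113 CPM with Aramchol and 86.2, 82.7 and 88.6 CPM with both. Every library with TGFβ lay below every library without it. It fell by 0.25 on the log2 scale without Aramchol (SE 0.06, edgeR adjusted p = 0.00337) and by 0.31 with it (edgeR adjusted p = 0.00101), calls that held in all 21 settings tried.

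**Figure D3:**
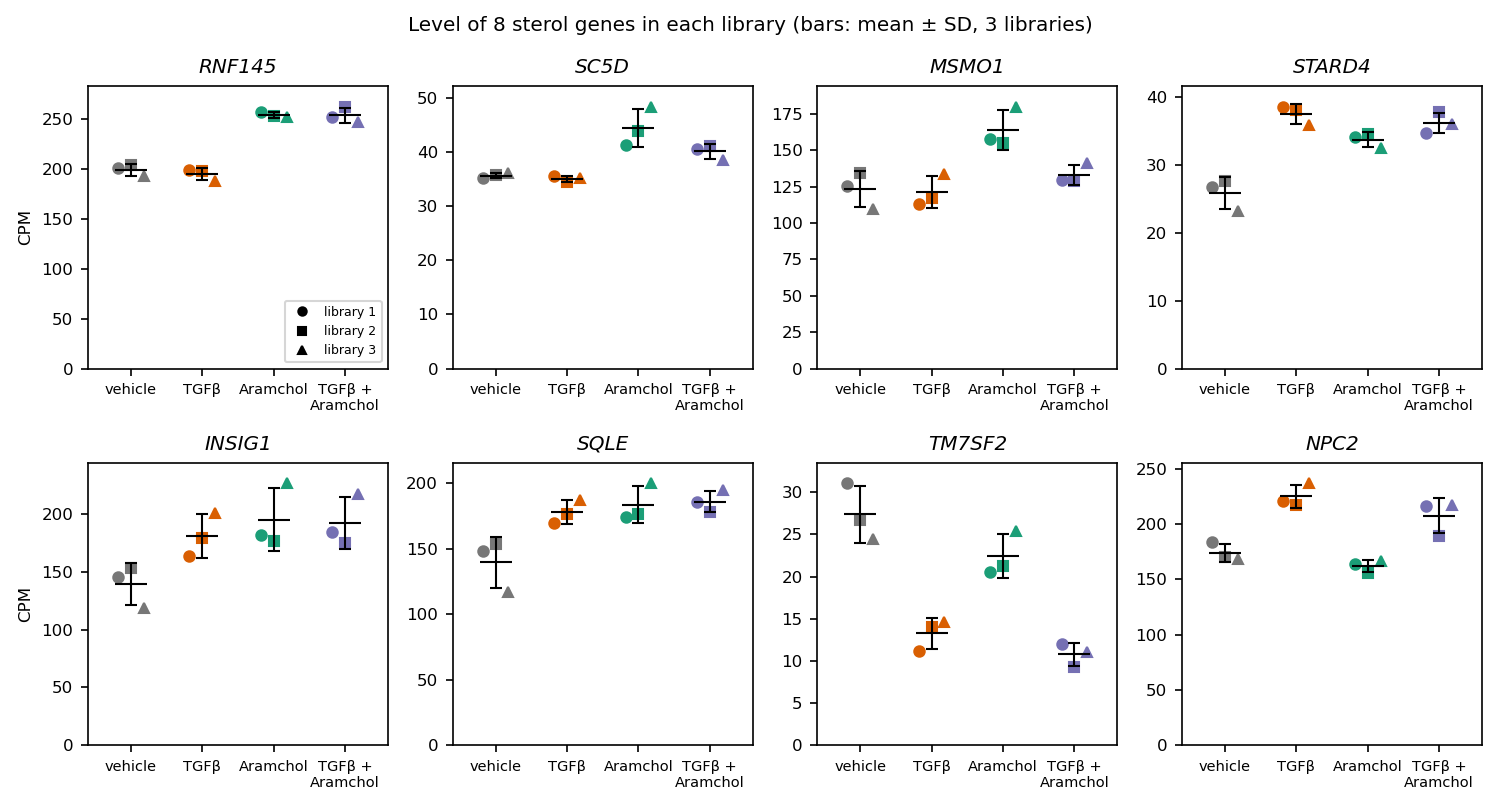
Level in CPM (y axis, from 0) of 8 sterol genes in the 12 libraries, by group (x axis); symbols mark the library number, and bars the mean ± SD of 3 libraries. RNF145 sits between 188 and 204 CPM in the 6 libraries without Aramchol and between 247 and 262 CPM in the 6 with it, and TM7SF2 drops in both TGFβ groups.

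Whether the response to Aramchol differed with TGFβ was tested as the interaction, the Aramchol effect on TGFβ minus that on vehicle. By edgeR on all 12 libraries, with the filter on low counts and no added term, none of the 29 genes was called, where 0.0139% of all genes were (3 genes). In that fit 7 members had an unadjusted p under 0.05, all negative, where 2.77% of all genes were. DESeq2 called 1 member, STARD4, and with no filter edgeR called 4, HMGCS1, INSIG1, SQLE and STARD4, of 151 genes in all. The interaction was negative in 25 of 29, with a median of -0.17 against 0.01 over all genes, of which 48.5% were negative. STARD4 had the smallest p, at -0.43 (95% interval -0.64 to -0.23, edgeR adjusted p = 0.447), and HMGCS1 the largest size, at -0.49 (95% interval -0.89 to -0.10, edgeR adjusted p = 0.898). INSIG1 was at -0.40 and SQLE at -0.33. The STARD4 value ranged from -0.48 to -0.36 over single left-out libraries, where it was never called (edgeR adjusted p at least 0.235). It was called by DESeq2, with a value of -0.45 (adjusted p = 0.0160). By edgeR it was called with no filter (adjusted p = 0.0181), with a term for the libraries numbered 3 (adjusted p = 0.0348) and among the libraries numbered 1 and 2, at -0.42 (adjusted p = 0.0164). The replicate block called STARD4 as well. The median over the 29 genes ran from -0.25 (without library 3 of the group with both agents) to -0.11 (without Aramchol library 3, and likewise without TGFβ library 3) over single left-out libraries, and was -0.04 among the 8 libraries numbered 1 and 2.

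Those 4 libraries differed from the other 8 in a way that the groups do not describe. Library 3 had the highest level of its group for 24 of 29 members with TGFβ, 22 with Aramchol and 23 with both, where 36.6, 36.7 and 34.7% of all genes had their highest level there. In vehicle the same number marked the lowest level for 23 of 29 members, where 43.1% of all genes were lowest there. The median member was at 112% of the mean of its group's other libraries in TGFβ library 3, at 114% in Aramchol library 3, at 107% in the library with both, and at 87.0% in vehicle library 3. RNF145, STARD4, SCAP and ERLIN1 were not highest in library 3 of any treated group, though all of these but ERLIN1 were lowest in vehicle library 3. What set the libraries numbered 3 apart was not tested.

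**Figure D4:**
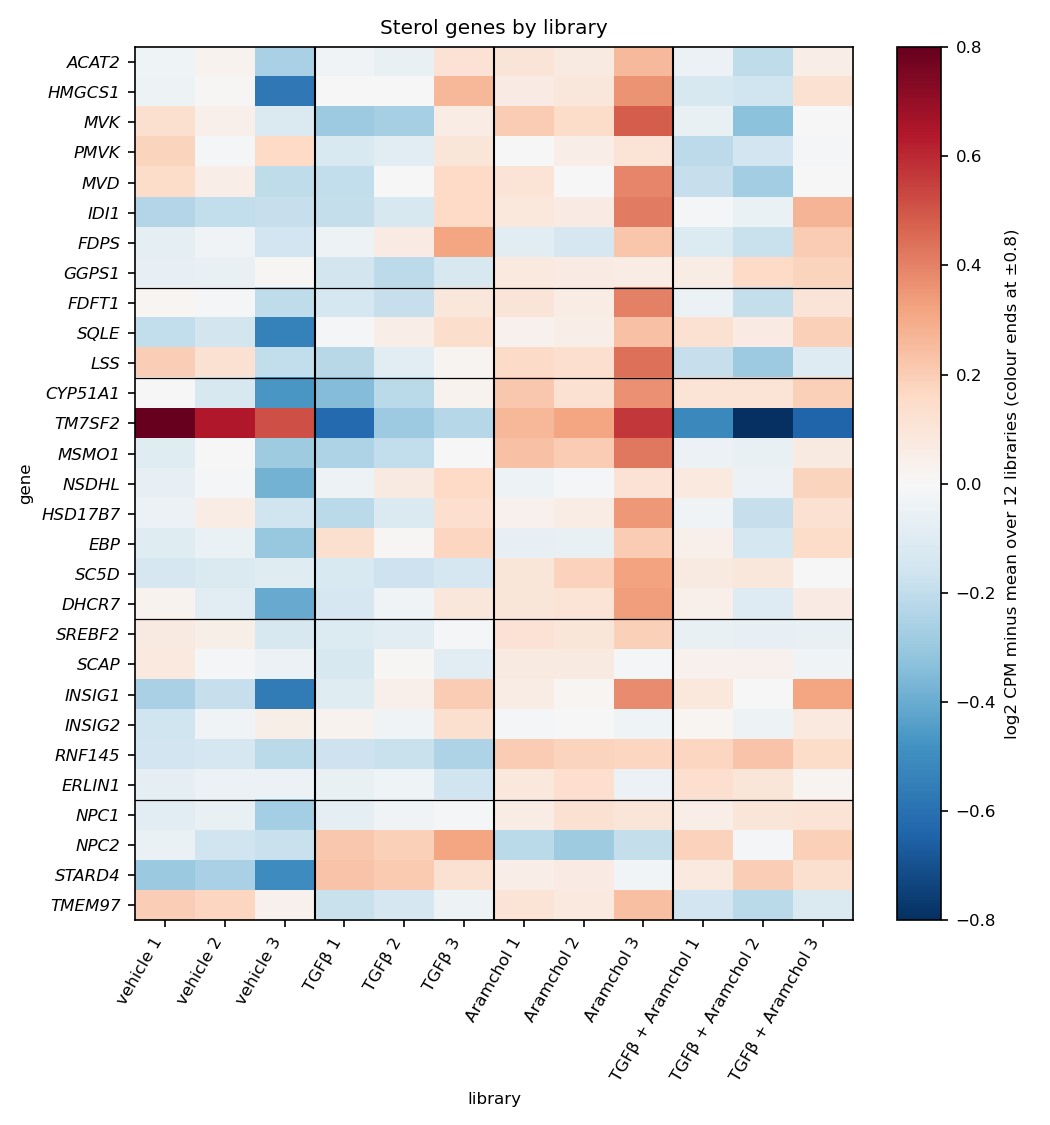
Log2 CPM of the 29 sterol genes (rows, grouped by role) in the 12 libraries (columns, grouped by treatment), each minus the mean of that gene over the 12 libraries; the colour scale ends at ±0.8. Vehicle library 3 is blue and Aramchol library 3 red for most genes, while RNF145 follows Aramchol and TM7SF2 follows TGFβ in each library.

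Proximal promoters, the 250 bases before the transcription start in RefSeq's GRCh38.p14 table, were found for 25 of the 29 genes; those of ACAT2, ERLIN1, FDFT1 and SQLE were not analysed here. SREBP2 binds sterol regulatory elements next to NF-Y, whose motif is CCAAT. This motif, searched on both strands, was present in 20 of 25 members (80.0%) and in 37.0% of all 27305 genes of the table, counting a gene when any of its starts had a match. The sterol regulatory element written TCACNCCAC was present in 1 of 25, SREBF2, against 1.09% of all genes. A match to it cannot also be one to the NF-Y motif, and other forms of the element were not searched. The windows below are those of MSMO1, with 4 NF-Y matches, of RNF145 and GGPS1, the genes that rose with Aramchol on TGFβ, and of SREBF2 for its element. They end at the outermost start of the gene, are written 5′ to 3′ on the strand of the gene, and have the NF-Y motif on either strand and the element in capitals.
MSMO1 (chr4:165327419-165327668, + strand): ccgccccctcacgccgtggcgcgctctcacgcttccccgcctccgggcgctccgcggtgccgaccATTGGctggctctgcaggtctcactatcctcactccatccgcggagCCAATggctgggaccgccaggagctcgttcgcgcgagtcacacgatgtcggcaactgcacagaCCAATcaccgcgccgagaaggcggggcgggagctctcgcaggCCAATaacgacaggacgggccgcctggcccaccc
RNF145 (chr5:159210054-159210303, - strand): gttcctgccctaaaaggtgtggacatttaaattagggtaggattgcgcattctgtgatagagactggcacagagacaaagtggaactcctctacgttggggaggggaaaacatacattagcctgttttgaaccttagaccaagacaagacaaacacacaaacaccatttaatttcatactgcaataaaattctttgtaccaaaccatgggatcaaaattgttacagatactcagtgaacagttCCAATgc
GGPS1 (chr1:235326966-235327215, + strand): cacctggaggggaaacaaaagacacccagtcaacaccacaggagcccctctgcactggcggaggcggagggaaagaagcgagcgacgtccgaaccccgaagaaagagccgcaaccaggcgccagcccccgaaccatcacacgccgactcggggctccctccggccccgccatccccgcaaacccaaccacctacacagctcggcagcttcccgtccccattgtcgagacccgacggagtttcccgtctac
SREBF2 (chr22:41832855-41833104, + strand): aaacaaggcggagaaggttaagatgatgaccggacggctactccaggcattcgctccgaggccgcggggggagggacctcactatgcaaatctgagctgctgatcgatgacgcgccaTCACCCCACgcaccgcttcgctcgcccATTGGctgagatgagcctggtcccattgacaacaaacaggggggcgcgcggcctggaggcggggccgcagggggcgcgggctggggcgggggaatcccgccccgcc
The 4 matches of MSMO1 lie on both strands, the nearest 34 bases before the start. SREBF2 has its element 133 and its NF-Y match 106 bases before the start. The RNF145 window shown holds 1 match 7 bases before the outermost of 5 starts, the other starts having none, and the GGPS1 window holds none, while 1 of its 3 starts has one. SC5D and STARD4, the other genes called with Aramchol alone, had 1 and 2 matches in their outermost windows. No binding was measured, so these matches describe letters only.

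A wider list of 47 sterol and lipid genes, 46 of them tested, was read from the same fit. With Aramchol alone none was called by edgeR, 14 higher and 1 lower had an unadjusted p under 0.05 (5.49% and 6.25% of all genes), and DESeq2 and the other settings called 0 to 6. With TGFβ alone 12 rose and 14 fell, where 18.9% and 18.1% of all genes did. ABCA1, the LXR-driven cholesterol exporter, rose by 1.55 on the log2 scale with TGFβ (edgeR adjusted p = 3.97e-11), from 32.1, 34.3 and 35.2 CPM to 98.8, 95.8 and 102 CPM. It was the single gene of the list called when Aramchol was added to TGFβ, where 2.25% of all genes were, and it fell there by 0.45 (edgeR adjusted p = 0.00332), to 66.4, 77.4 and 74.1 CPM, without overlap between the groups. GPAM, the first acyltransferase of glycerolipid synthesis, rose by 1.17 and SCD, which makes monounsaturated fatty acids and is the enzyme Aramchol inhibits, by 1.14 with TGFβ (edgeR adjusted p = 8.37e-09 and 3.38e-07). For the averaged Aramchol effect 5 of the list rose and 2 fell, where 5.96% of all genes were called. Without single libraries 2 to 10 of the list were called for this effect, and in the other settings 8 to 14. Among those that rose were LPIN1, a phosphatidate phosphatase driven by SREBP, at 0.29, and ELOVL6, which elongates palmitate, at 0.25 (edgeR adjusted p = 0.0142 and 0.0198). ABCA1 was called lower, at -0.20 (edgeR adjusted p = 0.0158). SCD itself was not called with Aramchol, at 0.40 on vehicle and -0.16 on TGFβ (edgeR adjusted p = 0.139 and 0.448).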

How the data were processed

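Reads of 12 libraries of total RNA were mapped to GRCh38 with STAR 2.7.9a and counted per gene with featureCounts of Subread, per the submitters' processing notes; no source used here gives the annotation release or strand setting. The deposited values were raw counts per gene, unnormalized, with gene length. Counts were analysed with edgeR 4.0.16 in R 4.3.3: filterByExpr kept 21567 genes, library sizes were scaled by TMM, and a quasi-likelihood model with 1 mean for each of 4 groups was fitted to all 12 libraries. The 4 pairwise contrasts, the interaction and the averaged Aramchol effect were tested, with Benjamini-Hochberg adjustment over all genes tested and calls at an adjusted p under 0.05; intervals are 95%. The common biological coefficient of variation was 8.90%. The test was checked on simulated data. Alternatives were RLE and upper quartile scaling, other filters, a replicate block, DESeq2 1.42.0 (Wald test), the 2 groups alone, and each library left out. A term for the libraries numbered 3, and libraries 1 and 2 alone, were chosen after seeing the data.

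The members, gene lists and tests were chosen with earlier results of these data known. All members are named; library values are given for those called, with a few others for their role; from the wider list up to 3 called genes with the smallest p per comparison are named. SCD was named as the gene of the enzyme that Aramchol inhibits; a gene meant as a check of TGFβ is not reported here. Promoter windows of SC5D and STARD4 are not printed because more of their bases lie in exons of their own count-table models (90 and 55) than in the windows shown (26 at most). Libraries with the same number were compared by the correlation of their deviations from group means. It was over 0.1 in 4 of 12 pairs, all numbered 3, and positive but lower in the others. The libraries numbered 3 carry running numbers 9 to 12 in the library names. Numbers were not taken to pair libraries in the fit, a choice that these correlations do not settle. The replicate block is therefore given beside it.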

Additional observations from a re-analysis of the deposited data

How the results depend on the processing

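Over the 21 settings tried, no member called by edgeR on all 12 libraries, with the filter and no added term, changed direction in that comparison. This does not cover members called only in another setting. Counts of calls moved more. With no filter on low counts, 11 members were called for TGFβ against vehicle. That setting gave 531 genes and 14 members for Aramchol against vehicle, 1278 genes for Aramchol added to TGFβ, 151 genes and 4 members for the interaction, and 1975 genes for the averaged Aramchol effect. DESeq2 gave 396 genes and 9 members, 1045 genes, 30 genes and 1 member, and 2012 genes in those 4 comparisons. With the replicate block, where library numbers are not shown to pair cultures, the values were 464 genes and 8 members, 1519 genes, 23 genes and 1 member (STARD4), and 2777 genes. Same-numbered libraries correlated at 0.11 to 0.22 for number 3 and at 0.0074 to 0.097 for numbers 1 and 2. With only the groups compared, Aramchol against vehicle had 5 genes and 0 members, and Aramchol added to TGFβ 973 genes. A term for the libraries numbered 3 gave 538 genes and 9 members for Aramchol against vehicle, 1683 and 4 for Aramchol added to TGFβ, 31 and 1 for the interaction, and 2939 genes for the averaged effect. The libraries numbered 1 and 2 alone gave 12 members for TGFβ (4 higher and 8 lower), 1551 genes and 10 members for Aramchol, 1866 and 5 for Aramchol added to TGFβ, 208 and 1 for the interaction, and 3550 genes for the averaged effect. The cause of these moves was not tested.

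Leaving out each library in turn gave 6846 to 7996 genes and 5 to 8 members for TGFβ against vehicle, 16 to 627 genes and 1 to 5 members for Aramchol against vehicle, and 55 to 1222 genes and 1 to 2 members for Aramchol added to TGFβ. It gave 5274 to 7374 genes and 4 to 10 members for TGFβ in Aramchol-treated cells, 0 to 7 genes and 0 members for the interaction, and 607 to 2806 genes and 4 to 12 members for the averaged effect. For TGFβ against vehicle the members split into 3 higher and 4 lower without vehicle library 3. Members had at least 562 counts in each library.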
